A study of Drosophila melanogaster with 2 samples.

Results

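Of 6153 reproducible peaks of Cnc-eGFP in whole Drosophila larvae, 505 had a summit in intergenic sequence away from promoters. A peak was counted here when its summit, the position of highest signal, lay more than 1000 bp from every annotated transcription start site (TSS) and outside every annotated gene body. The gene models were those of Ensembl for the dm6 build, with transposable elements left out. These 505 intergenic peaks made up 8.21% of the list (exact binomial 95% interval 7.53 to 8.92, counting error over peaks only). The rest were 1595 peaks inside gene bodies but more than 1000 bp from a TSS, called genic peaks below, and 4053 promoter peaks.

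The larvae were wandering larvae of the third instar, males and females pooled, from a transgenic line that stably carries cnc with GFP at its C terminus. Chromatin of whole animals was sheared by sonication and precipitated with an antibody against GFP, in 2 biological replicates. The 2 replicates form 1 group, so no conditions could be compared and no test between groups was made. All tissues were combined in each replicate, so a peak in few cells and a weaker peak in many cells cannot be told apart.

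Cnc (cap'n'collar) is the fly member of the family of basic leucine zipper (bZIP) factors to which mammalian Nrf2 belongs. It binds DNA as a dimer with the small Maf protein Maf-S, Keap1 holds its long isoform in check, and it is known for switching on detoxification and antioxidant genes. Intergenic sequence in flies holds many enhancers, which can act on a promoter from a distance and past a nearer gene. The nearest gene to a peak is therefore a position and not a shown target.

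The summit windows of the highest intergenic peaks are shown because every later comparison of base content and motifs rests on windows of this kind. Each line gives the flanking protein-coding genes and 101 bases centred on the summit, from the forward strand of dm6 and written from 5′ to 3′, for the highest peaks on 2L, 3L, 3R and X. Capitals mark matches to any of the motifs listed further on, the A tract aside, and windows without a match are in lower case.
COX7AL2 to CG31668, chr2L:2202332-2202432: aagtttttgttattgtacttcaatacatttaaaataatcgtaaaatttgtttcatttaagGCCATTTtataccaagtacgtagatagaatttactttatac
CG43245 to CG12523, chr3L:10776547-10776647: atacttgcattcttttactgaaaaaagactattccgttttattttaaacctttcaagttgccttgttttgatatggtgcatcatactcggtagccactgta
CG41562 to CG14621, chrX:22433039-22433139: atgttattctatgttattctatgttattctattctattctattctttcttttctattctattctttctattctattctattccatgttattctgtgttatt
CG9922 to foxo, chr3R:14053532-14053632: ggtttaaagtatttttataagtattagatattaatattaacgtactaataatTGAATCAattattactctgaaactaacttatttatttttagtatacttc
CG3008 to CG15625, chr2L:4888037-4888137: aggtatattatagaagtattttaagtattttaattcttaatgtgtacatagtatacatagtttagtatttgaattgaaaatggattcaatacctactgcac
hh to unk, chr3R:23149152-23149252: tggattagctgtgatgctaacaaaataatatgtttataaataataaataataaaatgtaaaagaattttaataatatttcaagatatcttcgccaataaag
The window between COX7AL2 and CG31668 held GCCATTT, the core of the site of the Polycomb recruiter Pho. The window beside foxo held TGAATCA, a form of the AP-1 site. The other 4 held none of these motifs, and the Cnc-Maf site was in none of the 6. The window between CG41562 and CG14621 is mostly short repeats, and its summit lies in an annotated transposable element.

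The Cnc-Maf site was searched as TGACNNNGC on both strands, the core recognised by dimers of Cnc with small Maf. It lay in few windows, of which 3 among the highest, on X and 3L, are shown with the match in capitals, read in reverse complement where it lies on the other strand.
CG8206 to CG8944, chrX:15741060-15741160: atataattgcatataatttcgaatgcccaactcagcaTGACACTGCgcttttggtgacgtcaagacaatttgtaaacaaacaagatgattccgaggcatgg
Or67d to CG12362, chr3L:10381533-10381633: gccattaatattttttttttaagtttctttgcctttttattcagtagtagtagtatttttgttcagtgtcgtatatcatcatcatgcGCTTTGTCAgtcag
CG34039 to CG42758, chr3L:14564558-14564658: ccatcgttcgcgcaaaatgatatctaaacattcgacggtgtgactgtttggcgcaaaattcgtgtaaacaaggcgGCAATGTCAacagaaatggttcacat
A second set of windows shares a 9-base element that was found by counting words and not by any known factor. It is TACACTGAG, or CTCAGTGTA on the other strand, and is in capitals in the examples below.
Pex7 to hry, chr3L:8668382-8668482: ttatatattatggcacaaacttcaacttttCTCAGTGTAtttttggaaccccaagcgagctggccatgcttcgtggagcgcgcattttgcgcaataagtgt
Cad89D to Gr89a, chr3R:16497565-16497665: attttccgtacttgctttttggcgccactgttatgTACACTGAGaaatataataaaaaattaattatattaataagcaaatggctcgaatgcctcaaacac
slp1 to slp2, chr2L:3832524-3832624: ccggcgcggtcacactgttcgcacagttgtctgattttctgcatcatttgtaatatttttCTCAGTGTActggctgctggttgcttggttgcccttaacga
The window between slp1 and slp2, genes for the forkhead factors sloppy paired, also held a Cnc-Maf match.

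The height of the intergenic peaks was close to that of genic peaks. A height here is the signal value deposited by the authors, a score of the peak against a control. Its scale is not stated. Among intergenic peaks it ranged from 205.8 to 3574 with a median of 336.8 (95% interval of the median 316.2 to 352.9). The median was 322.8 in genic peaks, 370.0 in promoter peaks and 353.1 in the whole list. Of the 505, 28 (5.55%, exact 95% interval 3.72 to 7.91) were among the 615 highest peaks of the list. So were 6.58% of genic peaks and 11.9% of promoter peaks.

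Membership of the reproducible list already required agreement between the replicates, so overlap with their lists is a description and no support. Of the 505, 487 (96.4%, exact 95% interval 94.4 to 97.9) overlapped a peak of each replicate's own list by at least 1 bp, against 97.6% of all peaks. A further 11 lacked an overlapping peak in replicate 1 and 7 lacked one in replicate 2, and these 18 had a median signal value of 288.5 and a maximum of 541.0. The value of a peak in a replicate is that of the highest peak overlapping it there. In replicate 1 they ranged from 40.9 to 1918 with a median of 175.8 (494 peaks), and in replicate 2 from 48.3 to 1704 with a median of 160.5 (498 peaks). Replicate 1 was the higher for 320 peaks and replicate 2 for 167. Across the 487 peaks with both values Spearman's rho was 0.760, a description of peaks that share their libraries. Neighbouring peaks could overlap the same replicate peak and then carry the same value, as did 44 peaks in replicate 1 and 40 in replicate 2.

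**Figure D1:**
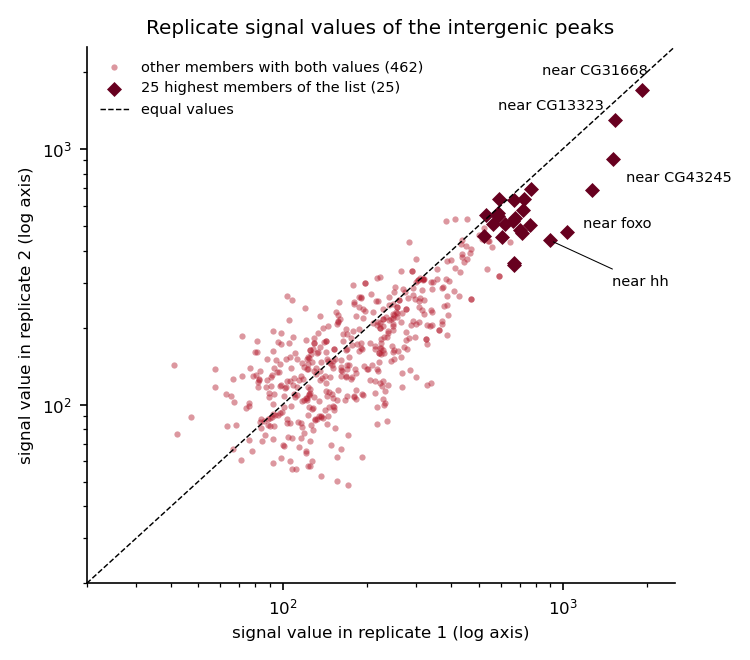
Signal value in replicate 1 (x, log axis) and replicate 2 (y, log axis) of the 487 intergenic peaks with both values. Each point is 1 peak, diamonds are the 25 highest in the reproducible list, and the dashed line marks equal values. The points form 1 cloud along that line, and 320 lie below it.

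In the deeper pooled list, capped by the authors at 30000 peaks, 3299 peaks were intergenic by the same rule. The reproducible list took in 505 of them, or 15.3% (exact 95% interval 14.1 to 16.6). The share was 20.5% over all pooled peaks, 11.99% for genic (11.4 to 12.6) and 30.3% for promoter peaks. The interval for intergenic peaks lies below the share of the whole list and above the interval for genic peaks. The reproducible list is the upper part of the pooled list by signal value, so these shares describe height once more.

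The highest intergenic peak lay between COX7AL2, named for a cytochrome c oxidase subunit, and CG31668 (2L, 2202209 to 2202596). Its signal value was 3574, the 22nd of the whole list, with 1918 in replicate 1 and 1704 in replicate 2. A peak on 2R between the Polycomb group gene Su(z)2 and CG13323 (13035145 to 13035524) reached 2794, with 1529 and 1297 in replicates 1 and 2. Both replicates ranked these peaks in their first 75. The peak downstream of CG43245 on 3L (10776383 to 10776738) reached 2381, with 1514 in replicate 1 and 909.6 in replicate 2.

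Peaks near foxo, hh and CycB, genes of known function, were also among the 9 highest. Upstream of foxo, the forkhead factor restrained by insulin signalling, a peak 3363 bp from the TSS (3R, 14053429 to 14053761) reached 1524, with 1030 in replicate 1 and 471.7 in replicate 2. Upstream of hh, which encodes the secreted ligand Hedgehog, a peak 7296 bp from the TSS (3R, 23149051 to 23149355) reached 1329, with 896.1 in replicate 1 and 439.5 in replicate 2. Both were clearly higher in replicate 1, as were 23 of the 25 highest intergenic peaks to some degree. Values leaned to replicate 1 in the whole list. The median ratio of replicate 2 to replicate 1 was 0.877 over all peaks with both values and 0.889 over such intergenic peaks. Near CycB, the mitotic cyclin B, a peak on 2R (22802780 to 22803097) reached 1278 with 668.7 and 633.4 in replicates 1 and 2. It was the only one of the 25 with a Cnc-Maf match.

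The others of the 25 highest had signal values between 1022 and 1574. They included peaks nearest to the TSSs of CG14621 on X (1574), CG15625 on 2L (1475) and Paics, an enzyme of purine synthesis, as the nearest coding gene on X (1232). On 2R they lay near yip3 (1212), near Ote, which encodes the nuclear lamina protein Otefin (1202), and near RYBP, a Polycomb-associated protein (1038). On 3R they lay near DNAlig3, a DNA ligase (1209), CG18404 (1173), CG42693 (1094), kay, the fly Fos (1074), and E(spl)malpha-BFM, a Notch target of the Bearded family (1022). On 3L they lay near CG6163 (1281), Tollo, a Toll-family receptor (1186), SrpRbeta, a subunit of the signal recognition particle receptor (1027), hng3 (1109) and CG13898 (1163, 1098 and 1032). A peak near CG44869 on 2L reached 1050. For 7 of the 25 the closest TSS of any kind was that of a noncoding RNA, and for 10 the nearest coding gene also had a promoter peak.

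Intergenic peaks grew sparse with distance from genes. The sequence that could hold them, outside gene bodies and over 1000 bp from every TSS, came to 33.64 Mb and carried 15.0 peaks per Mb (exact Poisson 95% interval 13.7 to 16.4). The density was 30.9 per Mb between 1 and 2 kb from a TSS and 19.4 between 2 and 5 kb. It was 17.3 between 5 and 10 kb, 11.01 between 10 and 20 kb, and 1.39 (0.692 to 2.48) beyond 20 kb. The last class was 23.6% of the eligible sequence and held 11 peaks. The median distance to the nearest TSS was 3641 bp, and the largest was 36589 bp.

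Few lay in repeats. Annotated transposable elements were 11.4% of the eligible sequence and held 2 peaks, or 0.523 per Mb, against 16.9 per Mb outside them. Those 2 were 0.396% of intergenic peaks, and 0.211% of all peaks had a summit in such elements. How reads with several matches in the genome were treated is not stated, and its part in these values was not tested. With transposable elements left out, an alternative added after seeing the data, the density was 32.4 per Mb at 1 to 2 kb and 1.66 per Mb (0.830 to 2.98) beyond 20 kb.

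**Figure D2:**
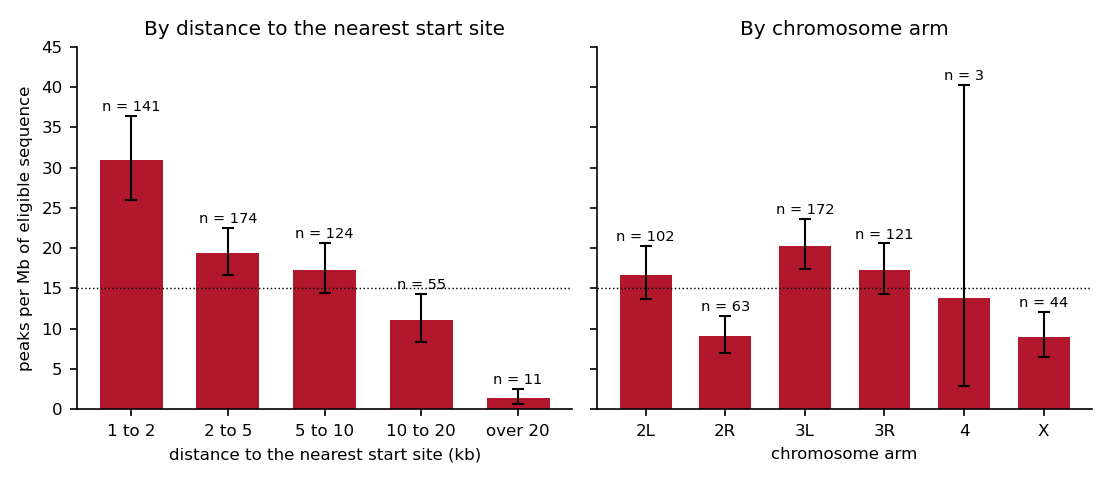
Intergenic peaks per Mb of eligible sequence by distance to the nearest TSS in kb (left) and by chromosome arm (right). Bars are densities, error bars exact Poisson 95% intervals, the dotted line the overall 15.0 per Mb, and n the number of peaks. The density is 30.9 per Mb at 1 to 2 kb and 1.39 beyond 20 kb, and the X and 2R are the lowest of the large arms.

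The chromosome arms differed. Densities were 20.3 per Mb on 3L (17.4 to 23.6), 17.2 on 3R and 16.7 on 2L. They were 9.08 on 2R (6.98 to 11.6) and 8.99 on X (6.53 to 12.1), intervals that lie below those of 3L, 3R and 2L. Densities by arm were not computed for genic or promoter peaks. Whether the difference is particular to intergenic peaks was therefore not tested. Chromosome 4 held 3 peaks, too few to place.

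The density varied little with the layout of the flanking genes. Between divergent genes the density was 17.3 per Mb (14.5 to 20.6), between genes in tandem 15.5 (13.7 to 17.6) and between convergent genes 15.2 (12.6 to 18.3). Upstream of the nearest coding TSS it was 15.2 per Mb, and downstream 14.7. These intervals overlap. The density was higher beside genes with a promoter peak of their own, at 36.4 per Mb (30.8 to 42.8) for 146 intergenic peaks, against 12.1 per Mb (10.9 to 13.4) for 359 beside genes without one. Distance to the TSS was not held fixed in this comparison, and genes with a promoter peak held only 11.9% of the eligible sequence.

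Noncoding genes were often the closest. The nearest TSS was that of a protein-coding gene for 320 peaks, a noncoding RNA for 169 and a tRNA for 16. Noncoding TSSs were thus nearest for 36.6% of intergenic peaks and 11.9% of all peaks. Of all peaks, however, 65.9% were promoter peaks. The share of eligible sequence nearest to a noncoding TSS was not computed, so no excess over that sequence is shown. The 505 peaks had 323 different nearest coding genes, of which 225 had 1 peak and 15 had 4 or more.

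Many intergenic peaks stood in runs. With neighbours at most 10000 bp apart, 290 of 505 (57.4%) had another intergenic peak beside them, and 24 runs of 4 or more held 134 peaks (26.5%). Of the 24 runs, 11 lay on 3L, 7 on 3R, 4 on 2L, 1 on 2R and 1 on X. All peaks of these runs overlapped a peak in both replicates, as did 97.6% of the whole list. Some neighbours were parts of 1 broad region, since the 505 peaks merged into 484 regions where they overlapped. Between merged regions, an alternative added after seeing the data, the share with a neighbour was 53.5%. The same share was not computed for genic or promoter peaks, so runs are not shown to be particular to intergenic peaks.

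**Figure D3:**
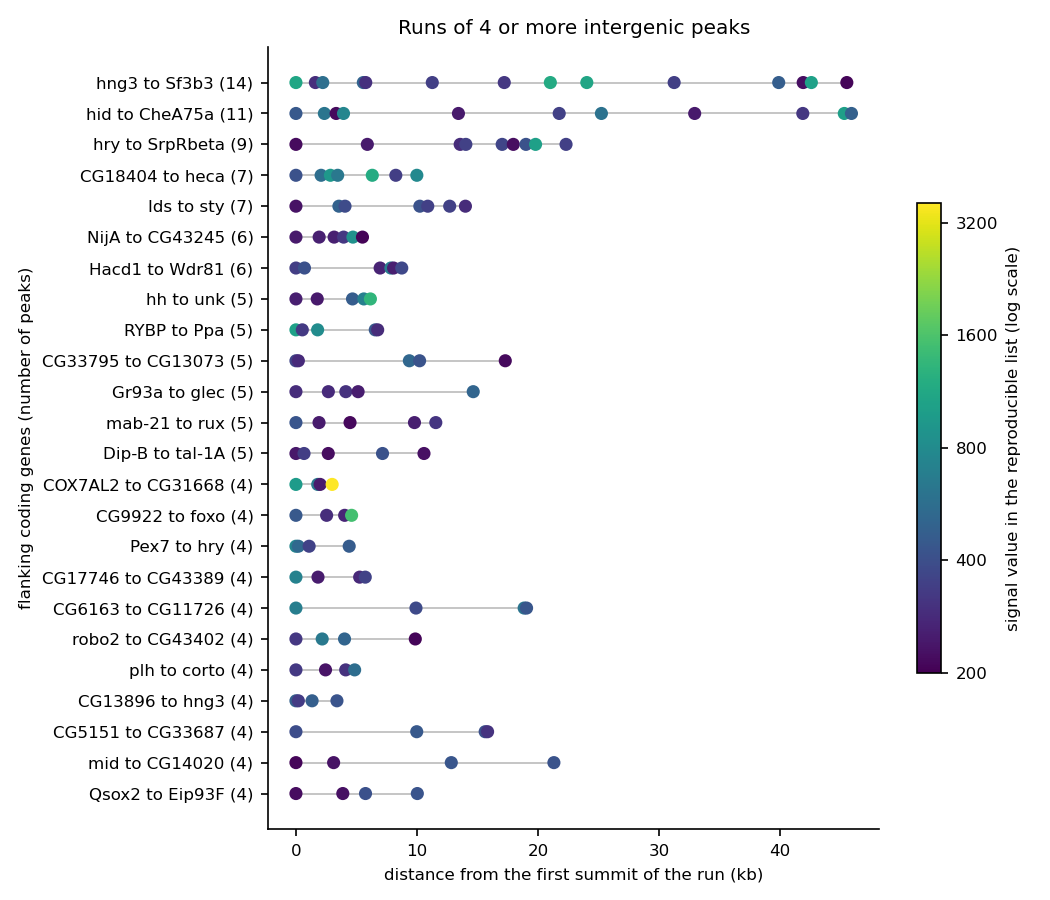
The 24 runs of 4 or more intergenic peaks, 1 per row, named by the coding genes on either side with the number of peaks. Points are summits at their distance in kb from the first summit of the run, coloured by signal value on a log scale. The longest runs, beside hng3 and hid, span 45.5 and 45.9 kb, and the highest summit stands between COX7AL2 and CG31668.

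The run with the most peaks had 14 summits on 3L between hng3 and Sf3b3, a splicing factor subunit (760336 to 805847). CG13898 and 2 genes for isoleucine tRNA lay inside it. Its signal values ranged from 207.4 to 1163 with a median of 406.0, and 4 summits exceeded 1000. A separate run of 4 lay on the other side of hng3 (724652 to 728040), with values of 331.4 to 485.4.

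Next came 11 summits on 3L between hid, an inducer of cell death, and CheA75a (18190675 to 18236568), from 215.0 to 1011. The first of them lay 5034 bp from hid with 444.6, and 237.4 and 190.4 in replicates 1 and 2. The highest, 1011, lay at the far end, closer to CheA75a, with 647.7 and 431.2.

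Both sides of hry carried a run. This gene encodes Hairy, a basic helix-loop-helix (bHLH) repressor that patterns segments and sensory bristles. On the upstream side 4 summits (3L, 8668232 to 8672631) had signal values of 749.3, 532.9, 352.8 and 457.1. The pair with 749.3 and 532.9 lay 200 bp apart and shared 1 peak in each replicate, with 471.1 in replicate 1 and 258.1 in replicate 2. On the downstream side 9 summits reached towards SrpRbeta (8682944 to 8705258), and the highest, 1027, lay closer to SrpRbeta than to hry. The 8 peaks with hry as nearest coding gene had a median of 352.1, near that of all intergenic peaks.

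The hh run held 5 summits between its TSS and unk, the zinc finger gene unkempt (3R, 23143050 to 23149202). With growing distance from the hh TSS the signal values were 255.9, 243.3, 466.2, 697.1 and 1329. Replicate 1 gave 130.1, 167.8, 246.8, 355.5 and 896.1 in that order. Replicate 2 gave 86.9, 129.8, 217.9, 309.1 and 439.5. In both replicates the values thus increased with each step away from hh, towards unk, while in the pooled call the lowest was the second.

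At foxo 4 summits lay upstream of the TSS (3R, 14048984 to 14053582). The one nearest to the TSS had 1524, and the others, 3937, 5426 and 7961 bp away, had 268.3, 289.8 and 445.0. Between COX7AL2 and CG31668 the 4 summits had 968.6, 652.7, 245.2 and 3574. Beside CG18404, 7 summits on the way to heca, the gene headcase, ranged from 337.6 to 1173 with a median of 639.3 (3R, 30255692 to 30265680).

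The peaks farthest from any TSS also stood together. Of the 10 most distant from a TSS, 6 formed 1 run on 3L between NijA, a Ninjurin gene, and CG43245 (10735336 to 10740832), 31093 to 36589 bp from the nearest TSS. Their signal values ranged from 205.8 to 848.6, and the summit with 848.6 had 435.9 in replicate 1 and 387.7 in replicate 2. The other 4 were a peak near AOX4, an aldehyde oxidase (251.9), one near Lim1, a LIM homeobox factor (207.4), and a pair near Tollo (538.0 and 1186). The 10 had a median of 257.9, below the 336.8 of all intergenic peaks, and distances from 25130 bp upwards.

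The other runs were mostly lower. Those with a maximum above 600 lay between Hacd1 and Wdr81 around Rh5, a rhodopsin (681.8), between RYBP and Ppa on 2R (1038), between CG17746 and CG43389 (711.2), between CG6163 and CG11726 (682.4), and between robo2, an axon guidance receptor, and CG43402 (640.2). Those between 500 and 600 lay between CG33795 and CG13073 (517.5), between Gr93a, a gustatory receptor, and glec (509.7), and beside corto (555.5). Those below 500 lay between Ids and sty, the receptor tyrosine kinase inhibitor Sprouty (492.1), between CG5151 and CG33687 (443.6), beside mid, a T-box factor (433.3), between mab-21 and rux (426.9), beside Eip93F, an ecdysone-induced factor (423.8), and between Dip-B and tal-1A (415.6).

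Genes of developmental control were among those nearest to intergenic peaks. For each of 15 gene lists, peaks were counted by nearest coding gene and set against the eligible sequence nearest to the same genes. The 67 patterning and homeobox factors had 25 peaks over 13 genes, or 33.6 per Mb (21.7 to 49.6), against 15.0 per Mb over all genes. The 25 were 4.95% of intergenic peaks, and the same genes were nearest to 0.98% of all peaks. Of the 25, 5 formed the hh run, and the interval counts each peak as separate. Besides those at hh the 25 included single or paired peaks at ptc, the Hedgehog receptor (779.3), Awh, a LIM homeobox factor (454.1 the higher), and wg, a Wnt ligand (338.0 the higher). The median of the 25 was 281.2, below that of all intergenic peaks. In the homeotic list of 8 genes, Antp had 1 peak (412.6) 25509 bp upstream.

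The other lists of transcription factors rested on few genes. The 6 peaks of the list of GATA, gut and fat body factors belonged to foxo (4) and kay (2), at 103 per Mb (37.9 to 225). They were 1.19% of intergenic peaks, and the same genes were nearest to 0.585% of all peaks. The bZIP factors and partners of Cnc had 4 peaks, 2 at kay, 1 at Atf3 and 1 at CrebA, at 52.7 per Mb (14.4 to 135). That was 0.792% of intergenic peaks, below the 1.09% of all peaks nearest to the same genes. The kay peaks had 1074 and 771.9 but shared 1 peak in each replicate, with 587.5 in replicate 1 and 562.4 in replicate 2. The Atf3 peak had 822.2, with 435.2 and 378.6, and the CrebA peak 512.9, with 250.5 and 274.6. All 3 genes also had a promoter peak.

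Among 23 ecdysone response factors, Eip93F had 4 peaks and Eip75B, a nuclear receptor, had 2, at 165 per Mb (60.5 to 359) over a short stretch of sequence. These 6 peaks were 1.19% of intergenic peaks, no more than the 1.28% of all peaks nearest to the same genes. The median of the 6 was 261.2. All 8 peaks of the 20 neural and Notch-pathway bHLH genes belonged to hry, at 152 per Mb (65.6 to 300), so the value describes 1 locus. The 8 were 1.58% of intergenic peaks, and genes of this list were nearest to 0.228% of all peaks.

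Detoxification genes, for which Cnc is known, differed by family in their eligible sequence. No peak lay nearest to any of 35 glutathione S-transferase genes, but only 0.00915 Mb of eligible sequence did, so that even 15.0 per Mb would give less than 1 peak. Of 83 cytochrome P450 genes 3 had peaks, Cyp12e1 with 3 (the highest 370.3), Cyp6v1 with 1 (459.9) and Cyp6a13 with 1 (351.7). Over 0.216 Mb of eligible sequence the density was 23.2 per Mb (7.53 to 54.1), an interval that includes 15.0. The 5 peaks were 0.990% of intergenic peaks (0.322 to 2.30), and the same genes were nearest to 0.455% of all peaks. The 22 salivary glue and ecdysone-induced cluster genes and the 18 metabolic and storage genes of fat body had 0, over only 0.0177 and 0.0220 Mb of eligible sequence, too little to show a lack.

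The remaining lists had at most 8 peaks each. Of 230 chemosensory genes, taken by symbol prefix and including odorant-binding proteins, 6 had 8 peaks, at 11.9 per Mb (5.14 to 23.5), the highest near Obp56h (978.2), Gr93d (509.7), Gr89a (411.8) and Ir68a (342.4). Of 122 cuticle protein genes Cpr51A (315.5), Cpr35B (273.2), Cpr12A (269.4) and Cpr72Ea (257.8) had 5 peaks between them, at 33.5 per Mb (10.9 to 78.2). Single peaks lay nearest to RpS15Aa of 92 ribosomal protein genes (277.2), to PGRP-SA, a peptidoglycan receptor, of 30 immune genes (428.7), and to robo2 (321.2) and NetB (251.4) of 27 neuron and synapse genes.

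Base content dipped at the summits. The windows of 101 bp had a median G and C content of 32.7%, with quartiles of 26.7 and 39.6%, against 41.6% in windows centred 1000 bp to either side. It was lower at the summit than in the flanks for 375 of 505 peaks (74.3%), near the 76.1% of all peaks. Genic windows had 33.7% against 40.6% in their flanks, and promoter windows 33.7% against 44.6%. Eligible intergenic sequence had a median of 41.6%. Around the dip the intergenic peaks had shoulders, with a mean of 46.3% at 220 bp on either side and 41.6% and 41.3% at 980 bp before and after the summit. Genic peaks had lower shoulders, 44.2% and 43.8% at the same distance, and promoter peaks had 42.1% and 41.9% there, below their flanks.

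**Figure D4:**
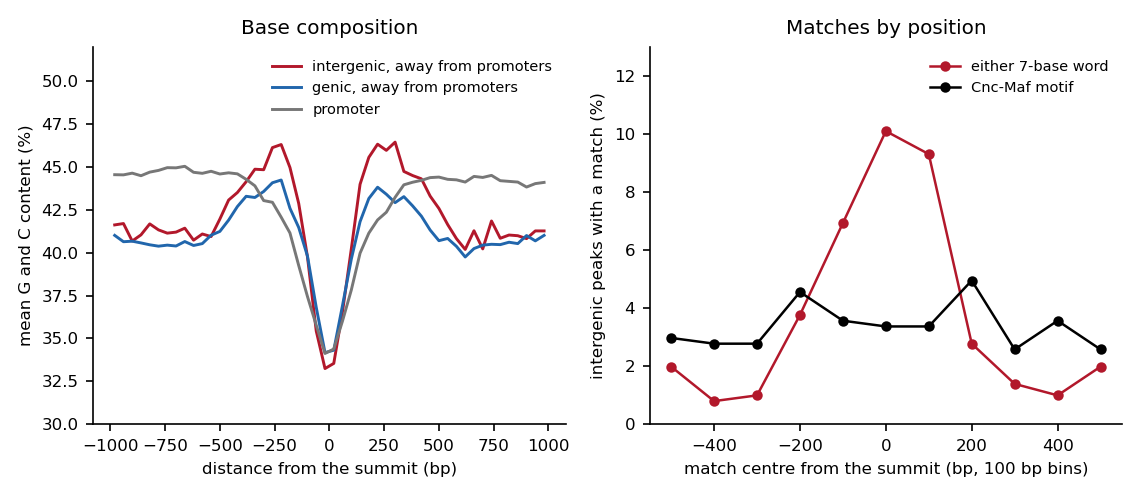
Left, mean G and C content in percent by distance from the summit in bp for the 3 classes of peaks. Right, share of the 505 intergenic peaks with a match to either 7-base word or to the Cnc-Maf motif whose centre lies in each bin of 100 bp. A match may extend past its bin, so counts can differ from those in windows. The G and C content is lowest at the summit. The words, chosen by their excess in summit windows, reach 10.1% there, and the Cnc-Maf motif stays between 2.57 and 4.95%.

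The Cnc-Maf site was no more frequent at the summits than around them. It lay in 16 of 505 windows (3.17%, exact 95% interval 1.82 to 5.09), against 3.37% of the flanking windows, 2.82% of genic windows, 2.64% of promoter windows and 3.02% of all eligible intergenic windows. The 16 peaks had a median signal value of 313.3 and the other 489 one of 337.6. A stricter form, TGACTCAGC, was in 0 of 505 windows, which allows a share of up to 0.728%. The windows shown above include the match beside CG8206, whose peak had 457.5, with 270.8 in replicate 1 and 167.3 in replicate 2. The other matches shown belong to peaks of 423.5 and 416.3.

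Related bZIP sites gave like values. The AP-1 site TGANTCA was in 2.38% of intergenic windows and 3.76% of their flanks, the CRE TGACGTCA in 1 window and 0 flanking windows, the C/EBP site TTGCNNAA in 9.11% and 7.62%, and the ATF4-type site TGATGNAA in 1.19% and 1.49%. The intervals include the flanking share, except that of the CRE, which rests on 1 window.

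Motifs that stood out in promoter windows were less frequent in intergenic windows. The DRE, TATCGATA, the site of the DREF factor, was in 0 of 505 intergenic windows and in 163 promoter windows (4.02%). It was also rare in genic windows (0.188%) and in the flanks of intergenic peaks (0.198%). The BEAF core CGATA, which the DRE contains, was in 9.90% of intergenic windows, close to the 10.8% of their flanks and against 21.9% of promoter windows. M1BP, GGTCACAC, was in 3 intergenic windows (0.594%, interval 0.123 to 1.73), 0.125% of genic windows and 1.51% of promoter windows. The intergenic interval includes the promoter share. The E-box CACGTG was in 1 intergenic window (0.198%) and in 1.39% of the flanks, and GAGAGAG, bound by the GAGA factor, in 0.792% and 2.28%. The upper limits of these intergenic intervals, 1.10% and 2.02%, lie below the flanking shares. Neither site stood out in promoter windows, with 1.01% against 1.51% of their flanks and 1.65% against 2.10%. Genic windows were also below their flanks, with 0.502% against 1.07% and 1.88% against 2.19%.

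Intergenic peaks differed from both other classes at the forkhead site. TGTTTAC was in 1.78% of intergenic windows (0.818 to 3.36), near the 1.98% of the flanks. It was in 5.39% of genic windows (4.34 to 6.62) and 4.07% of promoter windows (3.48 to 4.73). The GATA site GATAAG was in 4.16% of intergenic (2.59 to 6.29), 7.02% of genic (5.82 to 8.39) and 6.66% of promoter windows (5.91 to 7.47). The intergenic interval overlaps both others. The homeodomain core TAATTA was in 8.91% of intergenic, 10.4% of genic and 10.4% of promoter windows.

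The remaining motifs had shares whose intervals included the flanking share, except 2. They were the Zelda site CAGGTAG (0.198% of intergenic windows), the CTCF core GGTGGCG (1.19%), the nuclear receptor site AGGTCA (2.38%), the Pho core GCCATTT (2.77%), the heat shock element GAANNTTC (3.56%), CACACACA (1.39%) and AAAAAAAA (7.33%). The exceptions were the Su(Hw) core GCATACTT, in 1.19% (0.437 to 2.57) against 0.198% of the flanks, and the M1BP site, absent from the flanks. They rest on 6 and 3 windows, and 22 motifs were compared.

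**Figure D5:**
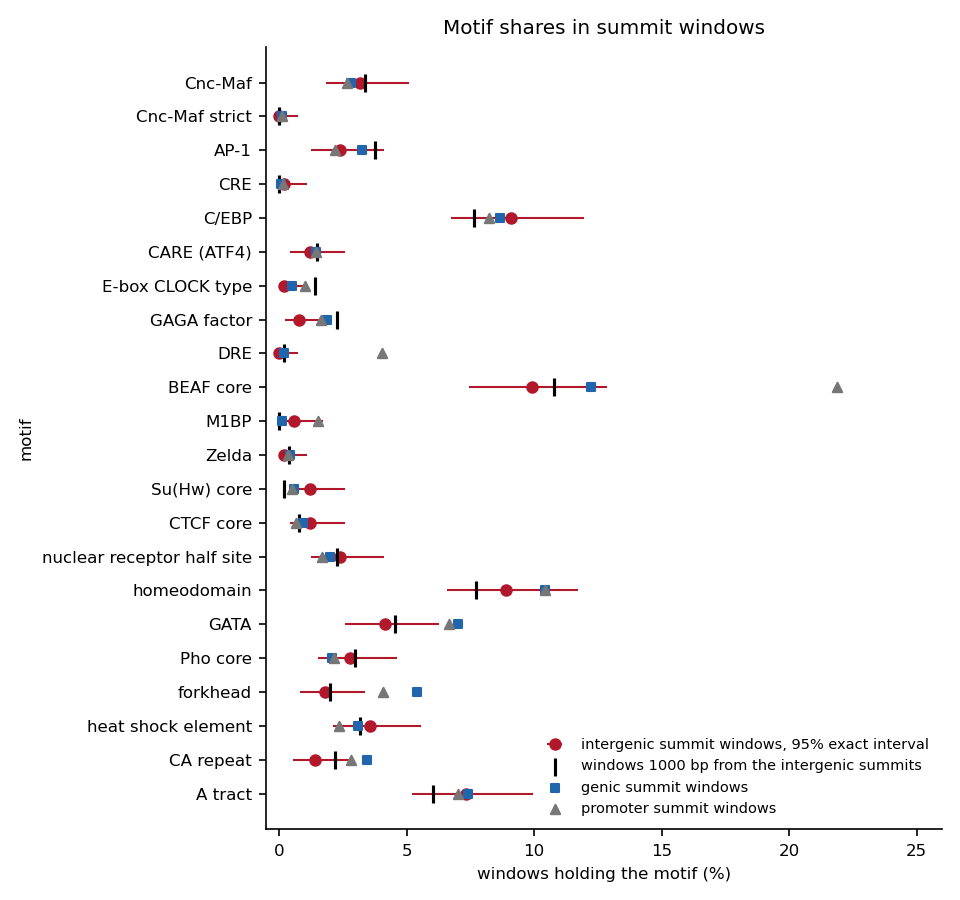
Share of 101 bp windows holding each of the 22 motifs, in percent, on either strand. Red points are intergenic summit windows with exact 95% intervals, black ticks windows 1000 bp from those summits, blue squares genic and grey triangles promoter summit windows. The DRE and BEAF core stand apart in promoter windows, at 4.02 and 21.9%, and the Cnc-Maf intervals include all other classes.

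A pair of 7-base words ranked first by the ratio of summit to flank. All words were counted in the summit and flanking windows, and those in at least 25 intergenic windows were ranked by their ratio, so the ranking chose them and no test was made. CACTGAG was in 26 windows (5.15%) against 0.495% of the flanks. CAGTGTA was in 35 (6.93%) against 0.792%. Read on 1 strand they overlap, and joined they give the element TACACTGAG of the windows shown above.

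At least 1 of these words lay in 51 of 505 intergenic windows (10.1%, exact 95% interval 7.61 to 13.1), against 1.29% of their flanks. These are the windows that were ranked, so this excess and any lead over other classes follow in part from the choice. The interval does not allow for that choice. The share was 4.83% in genic windows (3.83 to 6.00) and 2.54% in promoter windows, with 1.38% and 1.58% in their flanks. Over all eligible intergenic windows it was 1.74%. The joined element was in 10 intergenic windows (1.98%) and 0 of 1010 flanking windows, against 0.690% of genic and 0.197% of promoter windows.

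Matches were most frequent near the summits. The ranking used the summit windows, so the count there was set in part by the choice of words. By the centre of the match in bins of 100 bp, 51 peaks had one at the summit, 35 and 47 at 100 bp before and after it, and 5 and 7 at 300 bp before and after. The signal value was alike with and without a word, with medians of 338.0 and 336.5. Of the 51 peaks, 50 overlapped a peak in both replicates. They were spread over the arms, with 18 of 121 peaks on 3R, 16 of 172 on 3L, 10 of 102 on 2L, 5 of 63 on 2R and 2 of 44 on X.

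The words were also looked for in each replicate's own list, taken to its 6153 highest peaks. Intergenic peaks held a word in 6.98% of 487 windows in replicate 1 and 8.39% of 477 in replicate 2, against 1.13% and 1.26% of their flanks. Genic peaks held one in 4.95% and 3.89%. These lists share most peaks with the reproducible list and are no independent support. Among pooled intergenic peaks below the reproducible list the share was 2.79%, against 2.02% in their flanks.

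The joined element lay beside genes of several kinds. The highest of its peaks was one of the pair upstream of hry (532.9). The others shown belong to peaks near Gr89a, a gustatory receptor (411.8), and upstream of slp2 (308.4). Among the rest, peaks had as nearest coding genes CG31797 (390.7), jing, a zinc finger factor (316.7), noc (305.1), Cyt-c1L (246.7), laf (242.9) and en, the homeobox factor engrailed (235.6).

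Signal values were alike on both sides of the limit of the rule. The 12 peaks up to 100 bp beyond the limit of 1000 bp from a TSS had a median signal value of 311.3, and the 21 intergenic peaks left out by up to 100 bp had one of 317.1.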

How the data were processed

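Peak lists in the narrowPeak layout on dm6 were deposited for each of 2 replicates, for both replicates pooled, and for peaks passing a threshold on the irreproducible discovery rate, per the deposited file list. The signal value of a peak is the authors' deposited score against a control, and the −log10 q value was also deposited by the authors. The p-value column was not filled. The sources used here do not name the aligner, the peak caller, their versions or the threshold, and read depth is unknown. The replicate and pooled lists held 30000 peaks each, and the reproducible list held the 6153 highest of the pooled list. Lists on dm3 were not used here.

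Positions are 1-based on dm6. Genes were taken from Ensembl release 115 and sequence from RefSeq for the same assembly. Classes, distances, densities and motif counts were computed with Python 3.11.15, numpy 2.4.6, pandas 2.3.3 and scipy 1.17.1, and checked on simulated data. Intervals at 95% are exact binomial for shares, exact Poisson for densities and order statistics for medians, and cover counting error over peaks only.

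The peaks, motifs and gene lists were chosen with earlier results of these data known. The text names the 25 highest intergenic peaks, the 10 farthest from a TSS, every run of 4 or more, and up to 4 genes per list. Windows are shown for the highest peaks and for those with a Cnc-Maf match. The windows with words, and the genes with the joined element, were chosen after their values were seen. Alternatives covered the TSS distance, the gene models, each replicate on its own, a higher signal threshold, window and neighbour distances and the overlap rule. A further window with the joined element is not reported here.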

Additional observations from a re-analysis of the deposited data

How the results depend on the processing

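Part of these values depended on the rule. Motif shares aside, 43 values were recomputed, of which 26 stayed within the limits set for them and 17 moved out. With other TSS distances or gene models the median signal value was 330.5 to 340.2, against 336.8. The median G and C content was then 32.7 to 33.7%. With a TSS distance of 500 bp the intergenic share was 10.3% at 17.4 peaks per Mb, and with 2000 bp it was 5.92% at 12.5 per Mb, against 8.21% and 15.0. Counting protein-coding genes only gave 11.3% and 18.3 per Mb, counting transposable elements as genes gave 17.2 per Mb, and leaving out transposable elements, added after seeing the data, 16.9 per Mb. The upper part of the list by signal value had 228 intergenic peaks, 7.41% of it, at 6.78 per Mb, of which 45.2% had a neighbour within 10000 bp. Neighbours within 5000 bp gave 45.5% and within 20000 bp 66.7%, against 57.4%. Overlap with both replicates was 86.5% when their summits had to lie within 100 bp and 69.7% when their lists were taken to 6153 peaks, against 96.4%. Windows of 100 bp either side had a median G and C content of 35.3%, against 32.7%. With 1 replicate left out the count was 477 to 487, the share 7.75 to 7.92%, the density 14.2 to 14.5 per Mb, and the share with a neighbour 55.4 to 56.0%. Of 88 motif shares recomputed, 71 stayed within the interval given and 17 moved out of it, 11 of them with the wider windows. The Cnc-Maf share in wider windows was 7.33%, and flanking windows of that width were not counted. No paired analysis was possible because the result comes from no test. Unknown read depth limits how low a peak these lists can hold.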
